A study of Mus musculus with 12 samples.

Results

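Crypt stem cell and Wnt target genes were followed in the duodenum, and for comparison in the liver, of mice treated with corticosterone (CORT), the main glucocorticoid of rodents. The set held 10 genes, taken by their gene name from the 55416 genes listed for each tissue, and all 10 were found: Lgr5, Olfm4, Ascl2, Smoc2, Lrig1, Ephb2, Sox9, Axin2, Rnf43 and Znrf3. The animals were male C57BL6/J mice, 8 weeks old at the start, and no transgene or deletion is named for either group. The CORT group received 40 mg/kg under the skin each day for 8 weeks, and the vehicle group (Veh) received the carrier on the same schedule. RNA-seq was made from whole pieces of duodenum (named intestine in the sample labels) and of liver, with 3 Veh and 3 CORT libraries per tissue and 12 libraries in all. The labels call the libraries of a group biological replicates. Whether the duodenum and the liver libraries came from the same animals was not given in the sources used here.

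The intestinal epithelium is renewed from stem cells at the base of the crypts. Wnt ligands from neighbouring Paneth and stromal cells bind Frizzled and Lrp receptors, which stabilises beta-catenin and lets TCF/LEF factors switch on target genes. R-spondins bound by Lgr receptors strengthen the signal by removing Rnf43 and Znrf3, which otherwise take Frizzled off the cell surface. In the liver, Wnt signalling keeps the genes of hepatocytes around the central vein switched on, and Axin2 and Lgr5 are among them. In whole tissue, fewer cells of a type and less RNA per cell cannot be told apart.

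Values are TPM, transcript levels corrected for length and scaled to nearly the same total in each library. Levels can therefore be set side by side between genes, but the depth behind them is unknown, so only the spread between libraries gives an error. The TPM values summed to between 983327 and 997319 per library, with 19466 to 20446 genes above 0 in the duodenum and 17897 to 18891 in the liver. A gene was tested in a tissue if its mean was at least 1 TPM in either group. The test was limma on log2(TPM + 1), and a gene passed, or was called, with a Benjamini-Hochberg adjusted p of 0.05 or less over all genes tested and a fold change over 1.5. On this scale the change of genes near 1 TPM is understated. In the duodenum 13607 genes were tested and 2.15% were called, 1.23% higher and 0.919% lower in CORT. In the liver 11699 genes were tested and 6.92% were called, 4.91% higher and 2.01% lower. Fkbp5, a gene that the glucocorticoid receptor induces, was between 8.68 and 23.3 TPM in the Veh and between 252 and 379 TPM in the CORT duodenum libraries (log2 fold change 4.30, limma adjusted p = 0.0045), and it rose by 4.23 on the log2 scale in the liver (limma adjusted p = 0.00178). Tsc22d3, another such gene, rose by 2.01 on the log2 scale in the duodenum (limma adjusted p = 0.0185) and had a log2 fold change of 1.92 in the liver (limma adjusted p = 0.0623). Its duodenum call was lost without Veh2, CORT1 or CORT2 (adjusted p up to 0.0604), and it was called in the liver without Veh3 (adjusted p = 0.0386).

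Some libraries stood apart from the rest of their group. In the duodenum, Veh2 and Veh3 held transcripts of the exocrine pancreas: 23 acinar markers (a list of 24 without Zg16, which goblet cells also make) summed to 39577 TPM in Veh2 and 32012 TPM in Veh3, against 278 to 480 TPM in the other 4 libraries. The same pair had 144 and 145 TPM of Tff2, a trefoil factor of Brunner's glands and the stomach, which was below 1 TPM in the other 4. Paneth cell markers summed to 9918 TPM in Veh1 and 11209 TPM in CORT1, against 18724 to 30800 TPM in the other duodenum libraries, so that they were low in 1 library of each group. Stromal and smooth muscle markers were highest in Veh2, at 986 TPM, against 376 to 673 TPM elsewhere. Pan-epithelial genes summed to 5974 to 6947 TPM in Veh and 4660 to 5987 TPM in CORT libraries, and all 8 were above 0 in every library. In the liver, Veh2 differed from the other Veh libraries in Myc (44.6 TPM, against 1.20 and 3.95 TPM) and in Ccnd1 (40.02 TPM, against 9.90 and 7.99 TPM). Hepatocyte markers summed to between 48767 and 78528 TPM in the liver libraries. The part of these differences in the results below was not tested, but the count of called members in the duodenum is also given without the pancreatic libraries.

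**Figure D1:**
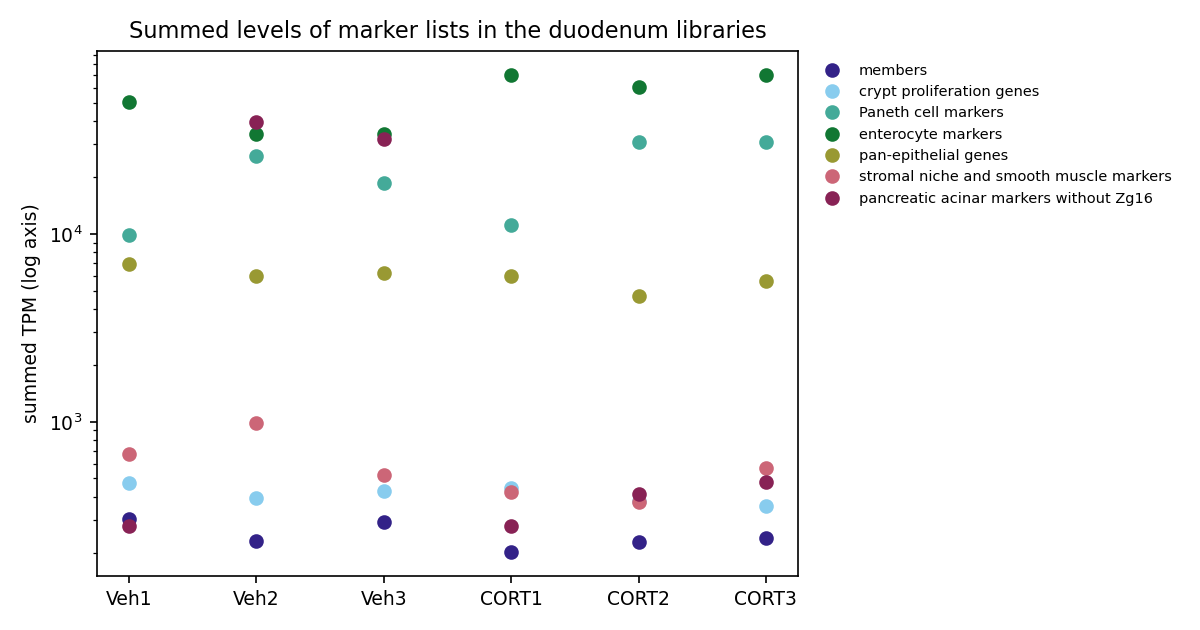
Summed TPM (log axis) of 7 gene lists in each of the 6 duodenum libraries, 1 point per list and library. The acinar markers are at 39577 TPM and 32012 TPM in Veh2 and Veh3 and at most 480 TPM elsewhere, while the 10 crypt and Wnt target genes lie between 203 and 304 TPM in all 6.

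The promoters of the members are shown for the gene that reports Wnt activity most directly and for the strongest control of the treatment, so that the letters bound by each pathway's factor can be looked for beside their values. Promoter sequence was found for 6 of the 10 members (7 start sites) in RefSeq, build GRCm38.p6, which is not the build of the deposited values (GRCm39). Each line gives the 250 bases before the start site, 5′ to 3′ on the gene's strand, with the glucocorticoid half-site AGAACA (or its reverse complement) in capitals.
Axin2, chr11:108920099-108920348, plus strand: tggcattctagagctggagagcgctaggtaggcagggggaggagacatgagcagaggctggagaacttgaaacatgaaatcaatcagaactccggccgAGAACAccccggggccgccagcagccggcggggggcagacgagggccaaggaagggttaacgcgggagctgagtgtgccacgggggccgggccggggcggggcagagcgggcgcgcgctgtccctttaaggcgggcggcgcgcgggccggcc
Fkbp5, chr17:28486150-28486399, minus strand: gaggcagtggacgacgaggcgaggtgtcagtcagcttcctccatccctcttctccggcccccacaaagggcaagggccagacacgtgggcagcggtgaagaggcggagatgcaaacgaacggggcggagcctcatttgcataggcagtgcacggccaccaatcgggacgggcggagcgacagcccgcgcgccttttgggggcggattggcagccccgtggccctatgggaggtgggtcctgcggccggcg
AGAACA, searched on both strands, was present 152 bases before the start of Axin2 and at 1 of the 2 start sites of Rnf43, and it was in 16.1% of the 32851 RefSeq mouse promoter windows of this length. It was not in the Fkbp5 window. The TCF/LEF words, CTTTG followed by 2 bases that are each A or T (4 words), searched on both strands, were in none of the 7 windows of the members and in 14.8% of all windows. Matches of this kind are descriptions of letters, and these windows leave out enhancers and introns.

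In the duodenum none of the 10 members passed the test. The log2 fold changes ran from -0.42 (Olfm4) to 0.51 (Ascl2), with 4 members positive and 6 negative, and their median was -0.06 against -0.01 over all genes tested. By limma 0 of 10 members had an unadjusted p under 0.05, against 19.2% of all genes tested in the duodenum, and the lowest adjusted p was 0.264. Without Veh2 and Veh3, the pair with pancreatic transcripts, 0 of 10 members were called either, in a fit where 10 genes of the whole table were called and Fkbp5 itself missed the threshold (limma adjusted p = 0.0566). Their log2 fold changes then ran from -0.61 (Olfm4) to 0.45 (Sox9), with Lgr5 at 0.39, Smoc2 at -0.32, Rnf43 at 0.27, Ephb2 at -0.18, Znrf3 at 0.17 and Lrig1 at -0.07. The 95% interval of the fold change stayed within 1.5-fold in both directions for 3 members (Smoc2, Lrig1 and Ephb2) and within 2-fold for 9 members, and it reached 2.14-fold higher for Ascl2. Changes within these intervals could not be told from no change with 3 libraries per group.

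**Figure D2:**
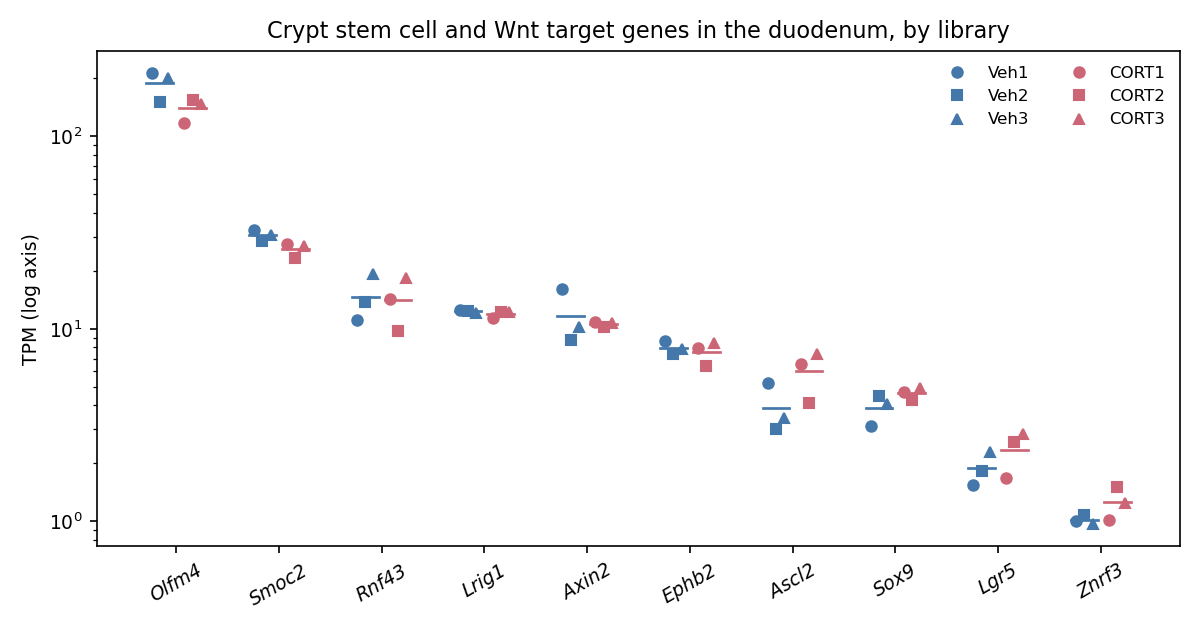
TPM (log axis) of the 10 members in the 6 duodenum libraries, 1 point per library, with lines at the group means (n = 3 per group). Olfm4 is the highest and Znrf3 the lowest in both groups, and the Veh and CORT points of every member but Smoc2 overlap.

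Lgr5, the R-spondin receptor that marks the cycling crypt base stem cell, was at 1.54, 1.83 and 2.28 TPM in Veh and 1.67, 2.57 and 2.84 TPM in CORT. The groups overlapped, since CORT1 lay between Veh1 and Veh2. The log2 fold change was 0.21 (95% interval -0.27 to 0.70, limma adjusted p = 0.602). Olfm4, a secreted glycoprotein abundant in the same cells, was at 212, 151 and 201 TPM in Veh and 118, 154 and 147 TPM in CORT. Veh2 was below CORT2, and the other Veh libraries were above all CORT libraries. Its log2 fold change of -0.42 had an interval from -0.85 to 0.00 (limma adjusted p = 0.264).

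Ascl2, a transcription factor needed for stem cell identity, was at 5.21, 3.01 and 3.45 TPM in Veh and 6.53, 4.11 and 7.37 TPM in CORT. Veh1 was above CORT2, so the groups overlapped. The log2 fold change was 0.51 (95% interval -0.07 to 1.10, limma adjusted p = 0.316), and 0.14 without the pancreatic libraries Veh2 and Veh3 (limma adjusted p = 0.902). Smoc2, a secreted matrix protein enriched in crypt base cells, was at 32.4, 28.7 and 30.7 TPM in Veh and 27.5, 23.2 and 26.9 TPM in CORT. It was the only member whose groups did not overlap, which held for 26.4% of all genes tested in the duodenum. Its log2 fold change was -0.24 (95% interval -0.53 to 0.05, limma adjusted p = 0.347).

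Lrig1, a membrane protein that restrains EGF receptors and marks a partly quiescent stem cell pool, had the smallest standard error of the members (0.11) and was at 12.56, 12.43 and 12.03 TPM in Veh and 11.3, 12.3 and 12.2 TPM in CORT. The log2 fold change was -0.05, with a 95% interval of -0.30 to 0.21. Ephb2, a receptor whose ephrin-B ligands position cells along the crypt, was at 8.66, 7.44 and 7.83 TPM in Veh and 7.94, 6.38 and 8.46 TPM in CORT. These values also overlapped, and the log2 fold change was -0.07 (95% interval -0.41 to 0.27).

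Axin2, a scaffold of the beta-catenin destruction complex and a direct target of the pathway it restrains, was at 16.0, 8.70 and 10.2 TPM in Veh and 10.8, 10.2 and 10.7 TPM in CORT. The 3 CORT values lay within the range of Veh, in which Veh1 was the highest. Its log2 fold change was -0.09 (95% interval -0.59 to 0.41, limma adjusted p = 0.851), 0.15 without Veh1 (limma adjusted p = 0.628) and -0.56 without both Veh2 and Veh3 (limma adjusted p = 0.464), so its size and sign rested on the Veh libraries kept. Sox9, a transcription factor of crypt progenitors and Paneth cells, was at 3.11, 4.5 and 4.06 TPM in Veh and 4.70, 4.27 and 4.94 TPM in CORT. CORT2 was below Veh2, and the log2 fold change was 0.21 (95% interval -0.16 to 0.59, limma adjusted p = 0.499).

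Rnf43, a ubiquitin ligase that removes Frizzled receptors, had the largest standard error (0.27) and was at 11.2, 13.7 and 19.2 TPM in Veh and 14.3, 9.69 and 18.3 TPM in CORT. Its log2 fold change of -0.07 had an interval from -0.70 to 0.57. It was 0.13 without Veh3 and 0.16 without CORT2, so its sign rested on those libraries. Znrf3, the paralog of Rnf43 with the same role, was at 1.00, 1.08 and 0.97 TPM in Veh and 1.02, 1.51 and 1.24 TPM in CORT, a log2 fold change of 0.16 (95% interval -0.28 to 0.59). CORT1 lay between the Veh values. Of the 8 pan-epithelial genes 6 had negative and 2 positive log2 fold changes, with a median of -0.23, and 0 were called. Dividing each library by these genes moved the median of all genes from -0.01 to 0.19. Axin2 (0.13), Rnf43 (0.15), Lrig1 (0.17) and Ephb2 (0.14) then had positive log2 fold changes and 2 members were negative, and again 0 members were called.

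In order of their mean TPM in the Veh duodenum, the members were Olfm4 (188 ± 32.6, SD, n = 3), Smoc2 (30.6 ± 1.87), Rnf43 (14.7 ± 4.12), Lrig1 (12.3 ± 0.276), Axin2 (11.6 ± 3.86), Ephb2 (7.98 ± 0.623), Ascl2 (3.89 ± 1.16), Sox9 (3.89 ± 0.710), Lgr5 (1.88 ± 0.373) and Znrf3 (1.02 ± 0.0569). Values overlapped between Rnf43 and Lrig1, between Lrig1 and Axin2, and between Ascl2 and Sox9, and the other neighbours were separate. The CORT duodenum gave the same order of means. Lgr5 is thus among the lowest members in level, and Olfm4 carries most of the summed TPM of the set.

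The members were also described by the genes whose log2(TPM + 1) tracked them most closely over the 6 duodenum libraries. These libraries differ in pancreatic and Paneth transcripts, so a shared pattern can also be a shared cell makeup, which was not tested. The genes named are the highest correlations among 13607 tested genes over only 6 libraries. Values of r this high can arise from that selection alone. For Lgr5 these were Gm20521 (Pearson r = 0.993), Defa38 (r = 0.985) and Tns2 (r = 0.979). Defa38 belongs to the alpha-defensins of Paneth cells, a family so alike in sequence that its reads are hard to assign to 1 copy, and it was at 1788, 2228 and 2725 TPM in Veh and 1917, 3997 and 4508 TPM in CORT. For Axin2 these were Zbtb5 (r = 0.991), Hes2 (r = 0.986) and Scnm1 (r = 0.985), each of them with its highest value in Veh1. Between members, the widest values of all pairs were r = -0.90 for Smoc2 and Znrf3 and r = -0.81 for Olfm4 and Sox9, over the same 6 libraries.

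Across the rest of the pathway, 0 genes were called in the duodenum in any of the 10 lists of other stem cell genes, Wnt target genes, ligands, receptors, inhibitors, destruction complex and transcription, BMP, Notch, EGF and Eph partners, and proliferation. The lists held 6 to 23 tested genes each, and 2.15% of all duodenum genes were called, so 0 in a list is near that share. The counts at an unadjusted p under 0.05 that follow stand against the 19.2% of all duodenum genes. Of 16 other crypt base stem cell genes tested, 1 had an unadjusted p under 0.05 in limma, and the median log2 fold change was 0.00. The 3 genes with the widest fold changes were Clu (-0.68), a marker of damage-responsive stem cells, Msi1 (0.39), an RNA-binding protein of progenitors, and Soat1 (0.36). Of 15 other Wnt target genes tested, 4 had an unadjusted p under 0.05, 3 of them positive, and the median was -0.04. Among these, Id2 was at 28.9, 29.6 and 33.2 TPM in Veh and 42.5, 48.7 and 58.0 TPM in CORT, groups that did not overlap, with a log2 fold change of 0.68 (limma adjusted p = 0.0732). Notum, a secreted enzyme that inactivates Wnt ligands and is itself a target of the pathway, was low at 0.37, 0.80 and 0.56 TPM in Veh and 2.24, 1.24 and 0.95 TPM in CORT (log2 fold change 0.63, limma adjusted p = 0.248). Ccnd1, cyclin D1, was at 23.6, 17.0 and 19.4 TPM in Veh and 12.5, 15.7 and 15.5 TPM in CORT (log2 fold change -0.43, limma adjusted p = 0.216).

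Of the ligands, R-spondins and genes of Wnt secretion, 6 of 25 were high enough to be tested, and 0 had an unadjusted p under 0.05. The widest fold changes were those of Porcn (-0.49) and Wls (-0.38), which acylate and export Wnt proteins, and of Wnt2b (0.31). Among 11 receptors tested, 1 had an unadjusted p under 0.05, and Fzd2 (-0.45), Fzd6 (-0.37) and Fzd4 (0.33), all Frizzled receptors, led the list. Among 7 inhibitors tested, 3 did, and Sfrp5 (-0.64) and Sfrp1 (-0.46), which bind Wnt ligands outside the cell, stood beside Notum. Of 23 genes of the destruction complex and transcription, 9 had an unadjusted p under 0.05, 6 of them positive, with Tle3 (-0.79) and Tle1 (0.63), both co-repressors of TCF factors, and Tnks (0.55), a tankyrase that destabilises Axin proteins, at the ends. No such gene passed the adjusted threshold.

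Among the niche signals, of 12 BMP genes 2 had an unadjusted p under 0.05 (Bmp4 0.69, Bmpr1a 0.57 and Bmp2 -0.54 were widest), of 13 Notch genes 2 did (Dll1 0.57, Jag1 0.57 and Heyl -0.39), and of 9 EGF and Eph partners 2 did (Errfi1 1.06, Efnb2 -0.60 and Ephb4 -0.22). For the Notch list the median log2 fold change was 0.22, with 11 of 13 positive, against -0.01 over all genes tested. Of 16 proliferation genes 3 had an unadjusted p under 0.05, all lower in CORT: the helicase subunits Mcm3 (-0.75), Mcm6 (-0.67) and Mcm5 (-0.48). Another subunit, Mcm2, was positive at 0.23, the highest of the list. Of the 16 genes 7 were positive and 9 negative, with a median of -0.04. Mcm6 came nearest to the threshold, at 28.6, 34.9 and 32.8 TPM in Veh and 21.2, 18.8 and 19.0 TPM in CORT (limma adjusted p = 0.051). The summed TPM of the 16 proliferation genes was 392 to 473 in Veh and 355 to 445 in CORT, and overlapped.

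Markers of other cell types were read in the same way. Paneth markers had 0 of 12 called and 0 with an unadjusted p under 0.05, with Defa22 (1.08), Defa21 (0.83) and Mmp7 (0.78) widest. Of the 12 markers 10 were positive and 2 negative, with Ang4 the lowest at -0.75. Enterocyte markers summed to 34004 to 50178 TPM in Veh and 60843 to 70523 TPM in CORT. Large parts of the sum were Apoa1 (mean 9631 TPM in Veh and 19495 TPM in CORT) and Apoa4 (9591 and 19837 TPM). Of the 12 markers 1 was called, 6 had an unadjusted p under 0.05, 9 were positive and 3 were negative. The negative ones were Alpi (-0.49), Anpep (-0.32) and Sis (-0.02). The called gene was Apob, the structural protein of chylomicrons, at 379, 221 and 216 TPM in Veh and 679, 1012 and 797 TPM in CORT (log2 fold change 1.64, limma adjusted p = 0.0325). Its call was lost in 5 of 6 fits that left out 1 library, with an adjusted p of up to 0.124 (without Veh3). Of 10 stromal and smooth muscle genes 0 were called and 4 had an unadjusted p under 0.05, all lower in CORT, with Actg2 (-1.16), Col1a1 (-0.75) and Cnn1 (-0.70) widest. Of 24 acinar markers 0 were called and 21 had an unadjusted p under 0.05, all lower in CORT. Both libraries with the high sums are Veh libraries. For 17 of the 24 markers every Veh value, that of Veh1 included, was above every CORT value. Cela2a, for example, was at 28.75 TPM in Veh1 and at most 0.26 TPM in CORT. What part the share of each cell type had in the values of the members was not tested.

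**Figure D3:**
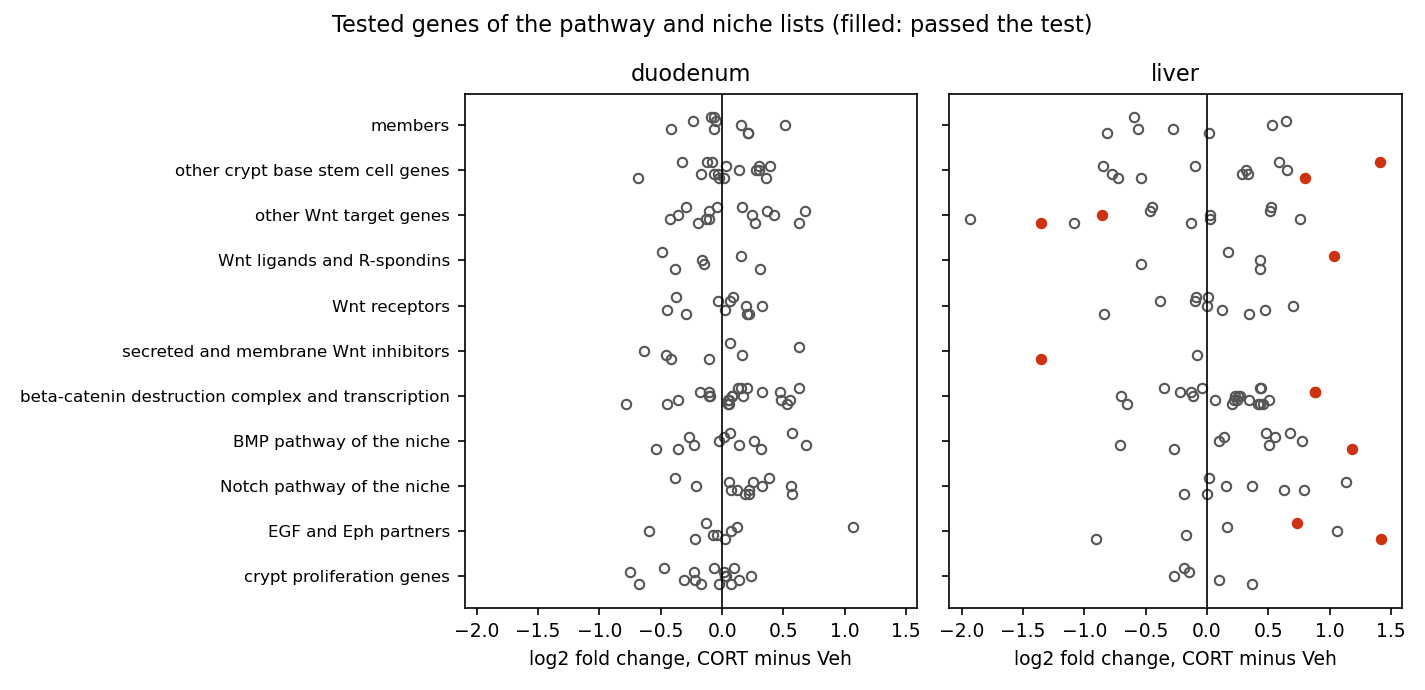
Log2 fold change (CORT minus Veh) of every tested gene in 11 lists, in the duodenum on the left and the liver on the right, with filled points for genes that passed the test. No point is filled in the duodenum, and in the liver filled points lie on both sides of 0, with those of Gsk3b and Bcl9l (both 0.88) on top of each other and Notum shown in both lists that hold it.

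In the liver, 7 of the 10 members were high enough to be tested and 0 were called. In limma 3 of the 7 had an unadjusted p under 0.05, against 25.9% of all genes tested in the liver. Olfm4 and Ascl2 were listed at 0 in all 6 libraries, and Ephb2 was at most 0.24 TPM. The median log2 fold change of the 7 was -0.27, against 0.08 over all genes tested. The groups did not overlap for Lgr5 and Sox9, which held for 32.2% of all genes tested in the liver.

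Lgr5 was at 1.90, 1.22 and 1.11 TPM in the Veh and 0.23, 0.53 and 0.32 TPM in the CORT livers. All CORT values were below all Veh values, and the log2 fold change was -0.82 (95% interval -1.35 to -0.28, limma adjusted p = 0.0785). It entered the test through its Veh level alone, since its CORT mean was below 1 TPM. Sox9, in the liver a gene of bile duct cells, was at 1.17, 1.3 and 1.25 TPM in Veh and 2.20, 2.32 and 3.03 TPM in CORT, a log2 fold change of 0.64 (95% interval 0.24 to 1.04, limma adjusted p = 0.0673). Here every CORT value was above every Veh value. Rnf43 was at 8.73, 7.27 and 5.58 TPM in Veh and 3.38, 5.66 and 4.23 TPM in CORT, with CORT2 just above Veh3 (log2 fold change -0.60, limma adjusted p = 0.137).

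Axin2 was at 3.29, 1.15 and 1.42 TPM in Veh and 3.32, 3.31 and 2.64 TPM in CORT, and Veh1 was level with the CORT libraries (log2 fold change 0.53, limma adjusted p = 0.271). Smoc2 was at 2.15, 4.34 and 3.91 TPM in Veh and 2.26, 2.10 and 1.55 TPM in CORT (log2 fold change -0.56, limma adjusted p = 0.193). Lrig1 was between 6.31 and 8.72 TPM in Veh and between 5.82 and 6.66 TPM in CORT. Znrf3 was between 1.56 and 1.77 TPM in Veh and between 1.65 and 1.82 TPM in CORT, and both pairs of ranges overlapped. The interval of the fold change stayed within 1.5-fold for 1 of the 7 members and within 2-fold for 2.

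**Figure D4:**
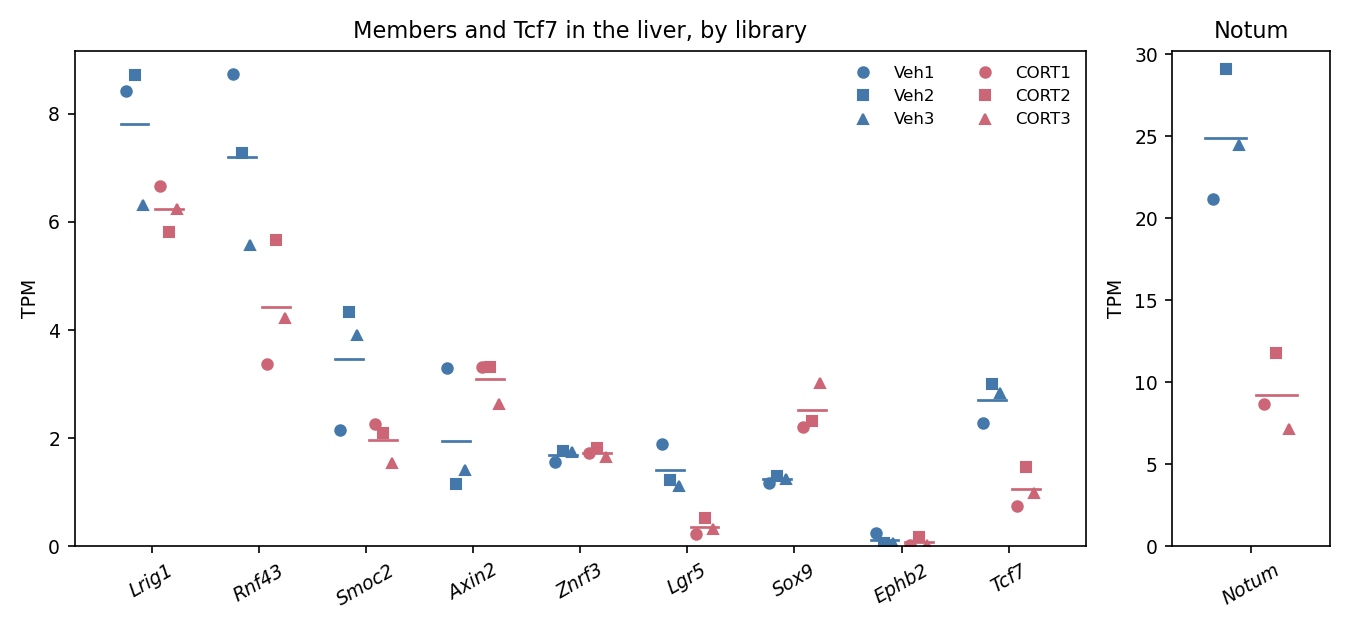
TPM of 8 members and Tcf7 (left) and of Notum on its own axis (right) in the 6 liver libraries, 1 point per library, with lines at the group means (n = 3 per group). CORT points lie below all Veh points for Lgr5, Tcf7 and Notum and above them for Sox9, and Olfm4 and Ascl2, listed at 0 in every liver library, are left out.

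Around the members, genes of the pathway did pass the test in the liver. The counts of called liver genes that follow stand against the 6.92% called of all genes tested there. Of 12 other Wnt target genes tested 2 were called, both lower in CORT. Notum was at 21.2, 29.1 and 24.5 TPM in Veh and 8.68, 11.8 and 7.18 TPM in CORT. It fell by 1.36 on the log2 scale (standard error 0.20, limma adjusted p = 0.0136), and the call held in 4 of 6 fits that left out 1 library (adjusted p = 0.0518 without Veh3 and 0.0565 without CORT1). Tcf7, a TCF factor and a target of the pathway, was at 2.29, 3.00 and 2.84 TPM in Veh and 0.74, 1.46 and 0.99 TPM in CORT. It fell by 0.86 (limma adjusted p = 0.0481), and its call was lost whichever library was left out, with the highest adjusted p, 0.156, without Veh3. The groups did not overlap for either gene. Ccnd1 had a log2 fold change of -1.93 (limma adjusted p = 0.0794), and of -1.25 without Veh2, where it passed the threshold (limma adjusted p = 0.0288). Myc had a log2 fold change of -1.09 (limma adjusted p = 0.527) that rested on Veh2: without that library it was 0.18 (limma adjusted p = 0.764).

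Called genes of Wnt secretion and of beta-catenin signalling were few. Porcn was at 0.80, 2.16 and 1.46 TPM in Veh and 4.27, 3.32 and 4.31 TPM in CORT (log2 fold change 1.04, limma adjusted p = 0.0465). It was the 1 called of 5 tested genes in the list of ligands, R-spondins and Wnt secretion. Gsk3b, the kinase that marks beta-catenin for degradation, rose by 0.88 (limma adjusted p = 0.0262), and Bcl9l, a co-activator of beta-catenin, by 0.88 (limma adjusted p = 0.0203), the 2 called of 23. Of 2 inhibitors tested Notum was the 1 called, and of 10 receptors 0 were called, 3 having an unadjusted p under 0.05. Porcn and Gsk3b each held their call in 1 of 6 fits that left out 1 library (without Veh2), with adjusted p up to 0.15 and 0.104 without CORT1. Bcl9l held its call in 3, with an adjusted p of up to 0.0849, also without CORT1.

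Of 12 other stem cell genes tested in the liver 2 were called, both higher. Hopx, a homeodomain protein that marks quiescent crypt stem cells and is also made by other cells, was at 58.8, 54.7 and 56.1 TPM in Veh and 174, 170 and 118 TPM in CORT. It rose by 1.41 on the log2 scale (standard error 0.17, limma adjusted p = 0.00702), and its call held in all 6 fits that left out 1 library. Bmi1, a Polycomb protein, rose by 0.80 (limma adjusted p = 0.0123) from 4.52, 4.62 and 4.70 TPM to 8.47, 9.36 and 8.53 TPM, and its call held in 3 of those 6 fits, with the highest adjusted p, 0.0621, without CORT1. Of 10 BMP genes described here 1 was called, Bmp2, a ligand, which rose by 1.18 (limma adjusted p = 0.027). Of those 6 fits, 1 kept its call (without Veh2), with an adjusted p of up to 0.0848 without Veh3. Of 6 EGF and Eph partners tested 2 were called: Epha2 rose by 1.42 (limma adjusted p = 0.00597), a call that held in all 6 fits, and Efnb1, an ephrin-B ligand, by 0.73 (limma adjusted p = 0.0306), a call that held in 1 (without Veh2; up to 0.115 without CORT1). Among 8 Notch and 5 proliferation genes tested 0 were called, with 2 and 0 at an unadjusted p under 0.05.

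Genes that depend on Wnt signalling in hepatocytes around the central vein were described beside them. Of 12 such genes, all tested, 1 was called, and it was higher in CORT. Cyp27a1, which oxidises the side chain of cholesterol, was at 240, 220 and 284 TPM in Veh and 514, 419 and 472 TPM in CORT (log2 fold change 0.92, limma adjusted p = 0.0182). Its call held in 4 of 6 fits that left out 1 library (adjusted p = 0.0618 without Veh1 and 0.0792 without CORT1). Glul, glutamine synthetase, was at 335, 141 and 388 TPM in Veh and 549, 701 and 397 TPM in CORT (log2 fold change 1.02, limma adjusted p = 0.169), and Slc1a2, a glutamate transporter, had a log2 fold change of 1.18 (limma adjusted p = 0.062). Of the 12, 8 were positive and 4 negative, the latter being Cyp1a2 (-0.51), Rgn (-0.24), Oat (-0.11) and Gulo (-0.07). The median of the 12 was 0.19, against 0.08 over all genes tested. In the duodenum 11 of these genes were tested, of which 6 were positive and 5 negative. There 2 were called, both higher in CORT, against 2.15% of all genes tested. They were Cyp27a1 (log2 fold change 2.42) and Glul (1.27). Their calls were lost in 2 and in 6 of 6 fits that left out 1 library.

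**Figure D5:**
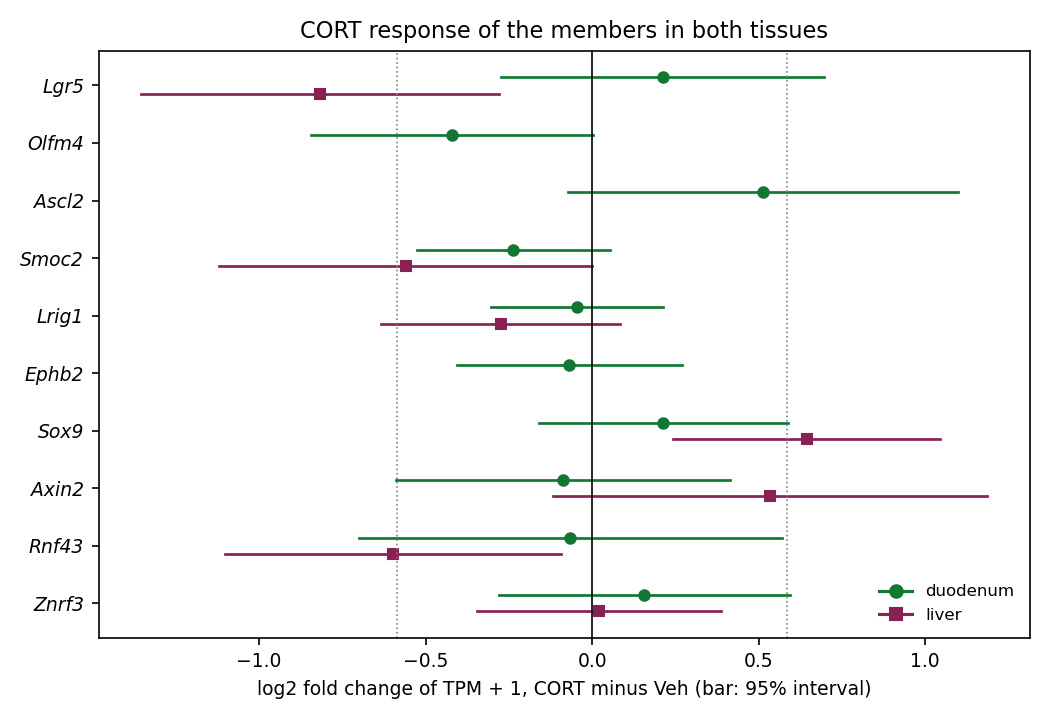
Log2 fold change of TPM + 1 (CORT minus Veh) of each member in the duodenum and, for the 7 tested there, in the liver, with 95% intervals as bars and dotted lines at 1.5-fold. All 10 duodenum intervals hold 0, and the liver intervals of Lgr5 and Rnf43 lie below 0 and that of Sox9 above.

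The difference between the tissues was tested over all 12 libraries, where 3.60% of 14806 genes passed. Among the members 0 of 10 passed and 1 had an unadjusted p under 0.05 in limma, against 18.3% of all genes. That member was Lgr5, whose response in the duodenum (0.21) exceeded that in the liver (-0.82) by 1.03 on the log2 scale (95% interval 0.43 to 1.62, limma adjusted p = 0.0649). The difference passed the threshold with a pseudocount of 0.1, where it was 2.03 (limma adjusted p = 0.0452), and without duodenum CORT1, where it was 1.19 (limma adjusted p = 0.0411). It did not pass in the other 14 of 16 alternatives (limma adjusted p up to 0.142). The value with a pseudocount of 0.1 includes liver CORT levels of at most 0.53 TPM. For Sox9 the difference was -0.43 (95% interval -0.88 to 0.02, limma adjusted p = 0.294), for Axin2 -0.62 (-1.43 to 0.18), for Rnf43 0.53 (-0.28 to 1.34), for Smoc2 0.32 (-0.26 to 0.91), for Lrig1 0.23 (-0.16 to 0.62) and for Znrf3 0.14 (-0.26 to 0.53). Each of these intervals holds 0. For Olfm4 and Ascl2, listed at 0 in the liver, the difference rests on the duodenum alone. Ephb2 had like log2 values in both tissues (-0.07 and -0.07), but in the liver it was at most 0.24 TPM.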

How the data were processed

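RNA-seq libraries of duodenum and liver, 3 Veh and 3 CORT each, were grouped by their labels. Read trimming by the authors used SeqPrep and Sickle, alignment HISAT2, and quantification StringTie and RSEM. Per the submitters' processing notes the build was GRCm39, and tool versions are not given in the sources used here. The authors deposited TPM for each gene in each single library. TPM keeps no read depth, so precision comes only from the spread between 3 libraries per group. The authors called genes with DESeq2, and their comparisons were not used.

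With R 4.3.3 and limma 3.58.1 (lmFit, eBayes with trend), log2(TPM + 1) was fitted per tissue with treatment as the only term, for genes whose group mean reached 1 TPM in Veh or CORT. The contrast of tissues used 1 fit of all 12 libraries. P-values were adjusted by Benjamini-Hochberg over all genes tested. The fits were tested on simulated data. The exact permutation test of 3 against 3 was not used, since its smallest two-sided p is 0.1. Whether libraries of a group are separate animals is not said beyond the label, so p-values measure the spread between these libraries. Same-numbered Veh and CORT libraries did not deviate together (r at most 0.0734), so numbers were not taken as pairs.

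Members and gene lists were chosen with earlier results of these data known. Named are the members, Fkbp5 and Tsc22d3, called genes of each list or otherwise the 3 with the largest absolute fold change, and the 3 genes most correlated with Lgr5 and Axin2. Ephb2 in the liver, Zg16, Tff2 and a few second examples are named for their values. Muc6, on the list of Brunner's gland markers, was not analysed here, and an item of the lists is not reported here. Alternatives were a pseudocount of 0.1, no filter, median-ratio scaling, pan-epithelial scaling, removal of acinar markers, the replicate block, unadjusted p and each library left out. Leaving out both pancreatic libraries was chosen after seeing the data. Promoter words were searched with Python.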

Additional observations from a re-analysis of the deposited data

Results flagged for a closer look

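The limma test of the difference itself between duodenum and liver covered 14806 genes, of which 3.60% passed. Those that passed include 8 described genes of the pathway, pericentral and enterocyte lists, and none of the 10 members. The 8 are named because they passed, which is not a result about their lists as a whole. Each value is the log2 fold change in the duodenum minus that in the liver.

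Notum had a difference of 1.98 (limma adjusted p = 0.0074), being called lower in the liver (-1.36) and at 0.63 in the duodenum, where its highest value was 2.24 TPM. Hopx had a difference of -1.14 (limma adjusted p = 0.0129) and was called in the liver (1.41). Both differences kept their call in all 16 alternatives. Tcf7 had a difference of 1.22 (limma adjusted p = 0.0299), which kept its call in 8 of 16 (adjusted p = 0.0736 without liver CORT1). Porcn had a difference of -1.52 (limma adjusted p = 0.0282; 6 of 16 kept it, 0.0722 without duodenum Veh3) and Bmp2 one of -1.73 (limma adjusted p = 0.0249; 9 of 16 kept it, 0.0645 without duodenum Veh3). Cyp27a1 had a difference of 1.5 (limma adjusted p = 0.0493), kept in 3 of 16 (adjusted p = 0.111 without liver Veh3). It was higher in CORT in both tissues, by 2.42 in the duodenum and by 0.92 in the liver.

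Apob had a difference of 1.78 (limma adjusted p = 0.0102), kept in 15 of 16 and lost with the replicate block. Treh, which splits trehalose at the brush border and was called higher in the liver (2.26), had a difference of -2.04 (limma adjusted p = 0.00248), kept in all 16. It was at 0.61, 1.3 and 0.7 TPM in the Veh and 7.75, 7.79 and 8.02 TPM in the CORT livers. Treh entered the liver test through its CORT level alone, since its Veh mean was 0.87 TPM. No cause of these differences was tested. Groups of 3 libraries were too small for a search for outlying values.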

How the results depend on the processing

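In the duodenum 0 members were called in all alternatives, and 6 members were lower against 2 with pan-epithelial scaling (4 to 6 with 1 library left out). In the liver 0 members were called, against 3 with unadjusted p. The number of members that differed between tissues was 0, against 1 with a pseudocount of 0.1 and 0 to 1 with 1 library left out. The replicate block, for numbers shared by label only, left 62 genes called in the duodenum and 307 in the liver, and 0 members; not every library correlated best with its own number. Calls in the duodenum went from 292 to 52 without a filter, 1395 with unadjusted p, 10 without both pancreatic libraries, and 66 to 237 with 1 library left out (higher calls were 57.2% of all, against 82.1% with pan-epithelial scaling). Calls in the liver went from 810 to 283 without a filter, 1808 with unadjusted p, and 247 to 831 with 1 library left out (71.0% higher, against 53.7% of 1011 with median-ratio scaling).

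The sign turned for 4 members with pan-epithelial scaling (Axin2 0.13, Rnf43 0.15, Lrig1 0.17, Ephb2 0.14), for Rnf43 without both pancreatic libraries (0.27; Axin2 was then -0.56 and Ascl2 0.14), and for Znrf3 in the liver with median-ratio scaling (-0.041). With 1 library left out, log2 fold changes ran from -0.26 to 0.15 for Axin2, -0.27 to 0.16 for Rnf43 and -0.14 to 0.037 for Ephb2 in the duodenum, from -0.016 to 0.041 for Znrf3 in the liver, and from -0.073 to 0.11 for the difference between tissues of Ephb2. Myc in the liver ran from -2.01 to 0.18. The cause was not tested. Depth is unknown and sets no stated limit.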
